A study of Homo sapiens with 12 samples.

Results

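The genes described here are the parts of the Ewing sarcoma fusion and their relatives: FLI1, EWSR1, ERG, ETS1, ETS2, ETV1, ETV4, ETV5 and TAF15. Each was taken from the deposited table by its annotation, as the entries naming that gene alone whose 12 values carry 3 decimals, and all 9 were found among 16913 genes kept from the table. Of these 9 genes, 7 had a mean log2 value at or above 5.94, the 40th percentile of the kept genes, and were tested among 10148 genes. ERG and ETS1 lay below that level and were not tested. The series was collected to examine how transcription in Ewing sarcoma responds to THZ531, a covalent inhibitor of the kinases CDK12 and CDK13, which act on RNA polymerase II during elongation. RNA was profiled on arrays from A673 and TC32, 2 established Ewing sarcoma lines grown in serum-containing medium and exposed for 6 hours. The 6 groups were A673 with the solvent DMSO, A673 with THZ531 at 100 nM, A673 with THZ531 at 500 nM, and the same 3 treatments of TC32, with 2 arrays each. Both lines are tumour cells that carry the EWSR1-FLI1 fusion, so no group lacks it, and each line stands for 1 tumour.

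In Ewing sarcoma a translocation joins the 5′ part of EWSR1, whose product is an RNA-binding protein of the FET family, to the 3′ part of an ETS gene, most often FLI1 and less often ERG, ETV1, ETV4 or FEV. The EWSR1 promoter then drives a chimeric transcription factor, EWS/FLI, whose ETS domain recognises GGAA cores and which also binds runs of GGAA repeats. A probe in the 3′ part of FLI1 reads the fusion transcript and unrearranged FLI1 alike. A probe for EWSR1 reads unrearranged EWSR1 and, if it lies in the 5′ part, the fusion too. Where the probes lie was not analysed here, so each value below may mix the transcripts that its probe set matches.

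Values are log2 signals as the authors deposited them, and most genes shifted together between groups. The median over all kept genes moved by -0.62 (log2) at 100 nM and -0.83 at 500 nM in A673, and by -0.21 and -0.79 in TC32. It was 0.69 higher in A673 than in TC32 under DMSO. Each difference is therefore given on both scales: as deposited, and on centred values (here "relative"), in which each array has its median over the kept genes subtracted. The first differences of each gene are stated with their standard error (SE), and all with the adjusted p of limma's moderated test on all 12 arrays, adjusted by Benjamini-Hochberg over the 10148 genes, and a gene is said to fall or rise where that value was under 0.05. Replicate arrays correlated at 0.992 to 0.996. Between the replicate arrays the median gene differed by 0.46 in A673 at 500 nM, against 0.11 to 0.19 in the other 5 groups. The arrays are called biological replicates in the labels, and their number limits the precision. As deposited, limma gave a gene's own variance no weight and took it from the trend with signal level (infinite prior degrees of freedom, against 15.77 on centred values). The as-deposited adjusted p values thus do not measure a gene's own spread between replicates. They also take that variance as known, although the genes of an array shift together. Of 8 markers of Ewing sarcoma, 7 were kept and all 7 were tested, and NR0B1 was not kept. Over the 12 arrays CD99 lay between 13.1 and 13.9 and CCND1 between 11.95 and 12.7. STEAP1 lay between 10.4 and 12.5 and PRKCB between 10.7 and 11.7. The others reached lower, with NKX2-2 between 8.27 and 11.1, LIPI between 6.66 and 9.80 and BCL11B between 6.51 and 10.9. Of 4 kept haematopoietic markers, 2 were tested: CD79A lay between 6.52 and 7.44 and HBB between 5.73 and 7.50, while PTPRC lay between 3.52 and 4.23. Of 5 kept epithelial markers, 3 were tested, with MUC1 between 6.76 and 8.03, CLDN4 at a median of 7.08 and EPCAM between 3.73 and 4.40. Of 4 kept muscle markers DES alone was tested (6.36 to 7.82), and MYOD1 lay between 4.69 and 5.36. Of 4 kept neural markers 2 were tested, with SYP between 6.58 and 8.50. The part of other cells in the results was not tested.

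The GGAA core that this family reads is shown in the promoters of its own members, since the promoter of EWSR1 is the one that drives the fusion. Of the 9 genes, 3 had a window at their outermost start in the RefSeq promoter table (GRCh38.p14), and the 250 bases before that start are printed 5′ to 3′ on the gene's own strand. Capitals mark each GGAA and its reverse complement, TTCC. The EWSR1 window, chr22:29268018-29268267 on the plus strand, precedes the gene whose promoter drives the fusion. The ETS2 window is chr21:38804933-38805182 on the plus strand, and the ETV1 window is chr7:13991426-13991675 on the minus strand.
EWSR1: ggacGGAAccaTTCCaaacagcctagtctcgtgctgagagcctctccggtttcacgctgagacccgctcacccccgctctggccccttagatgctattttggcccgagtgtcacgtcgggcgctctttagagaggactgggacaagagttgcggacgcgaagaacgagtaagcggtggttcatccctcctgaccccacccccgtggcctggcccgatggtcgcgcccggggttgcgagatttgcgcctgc
ETS2: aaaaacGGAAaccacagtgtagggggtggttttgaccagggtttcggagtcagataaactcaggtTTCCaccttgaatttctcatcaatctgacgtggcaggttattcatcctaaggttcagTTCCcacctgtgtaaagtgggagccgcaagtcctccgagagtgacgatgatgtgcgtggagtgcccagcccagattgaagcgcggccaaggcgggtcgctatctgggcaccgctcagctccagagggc
ETV1: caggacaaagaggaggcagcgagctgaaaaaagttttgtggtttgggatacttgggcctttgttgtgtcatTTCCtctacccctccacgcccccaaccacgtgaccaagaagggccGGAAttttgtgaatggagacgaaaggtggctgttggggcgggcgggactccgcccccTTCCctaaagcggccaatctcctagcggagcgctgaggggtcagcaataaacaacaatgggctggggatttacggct
EWSR1 held 2 such cores, and ETS2 and ETV1 held 3 each. These counts are ordinary: of 35116 RefSeq windows of the same length, 92.7% held at least 1 GGAA on either strand, with a median of 3 sites. The longer ETS site CGGAAG (or CTTCCG) was found in 16.5% of the windows and in none of these 3. The tandem GGAAGGAA (or TTCCTTCC), which overlaps the first motif, was found in 3.06% of the windows and in none of these 3.

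FLI1, the ETS part of the fusion, was lower in both lines at both doses, and TC32 lost more of it at the lower dose than A673 did. In A673 its log2 values were 10.85 and 10.87 under DMSO, 9.55 and 9.29 at 100 nM, then 8.39 and 8.01 at 500 nM. The groups did not overlap, and the signal stepped down at each dose. In such bulk RNA, fewer cells that express a gene and less of its RNA per cell cannot be told apart. The TC32 arrays read 8.996 and 8.961 under DMSO, 6.18 and 6.35 at 100 nM, then 5.87 and 5.45 at 500 nM. Here most of the drop as deposited was present at the lower dose. Both arrays at 500 nM lay under the filter level of 5.94, where the size of a further step is uncertain.

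**Figure D1:**
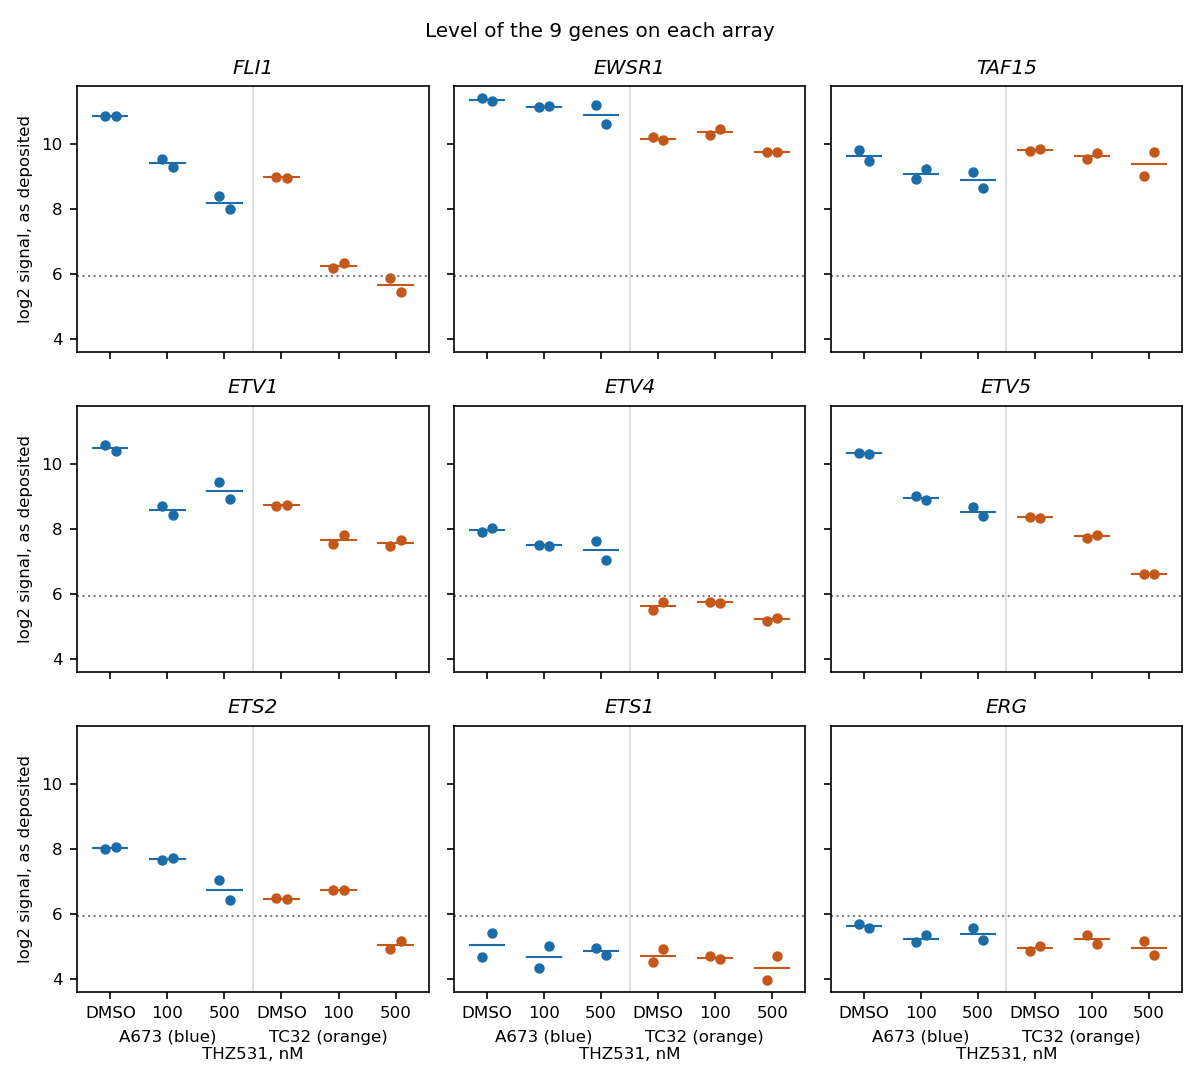
Log2 signal as deposited of the 9 genes in A673 and TC32, 1 panel per gene, with the treatment on the horizontal axis; points are arrays (2 per group), short lines are group means, and the dotted line is the filter level of 5.94. FLI1 falls from a mean of 10.86 to 8.20 in A673 and from 8.98 to 5.66 in TC32, EWSR1 stays between 9.74 and 11.4, and ERG and ETS1 lie under the dotted line on all 12 arrays.

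In A673, FLI1 fell by 1.44 ± 0.21 (SE) at 100 nM, or 2.72-fold (limma, adjusted p = 9.82e-11), and on the relative scale by 0.82 ± 0.14 (adjusted p = 5.74e-05). At 500 nM it fell by 2.66 ± 0.21, or 6.32-fold (adjusted p = 1.42e-35), and by 1.83 ± 0.14 on the relative scale (adjusted p = 2.11e-10). The second step, from 100 to 500 nM, was itself a fall, of 1.22 as deposited (adjusted p = 8.16e-08) and 1.00 relative (adjusted p = 3.54e-06). In TC32, FLI1 fell by 2.72 ± 0.21 at 100 nM, or 6.57-fold (adjusted p = 6.13e-36), and by 2.51 ± 0.14 on the relative scale (adjusted p = 3.96e-12). At 500 nM it fell by 3.32 ± 0.21 (adjusted p = 8.05e-55), and by 2.53 ± 0.14 relative (adjusted p = 8.97e-13). Since the 500 nM mean of 5.66 is under the filter level, the fall is also given with that mean held at 5.94. That makes it 8.20-fold as deposited, a point value and not a lower limit. On the relative scale, without that hold, it was 5.77-fold. These 4 falls against DMSO held on both scales whichever single array was left out.

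From 100 to 500 nM in TC32, FLI1 fell by a further 0.61 as deposited (adjusted p = 0.00834). With the 500 nM mean held at the filter level that step is 1.25-fold as deposited, or 0.32 on the log2 scale (-0.32). On the relative scale that step was -0.02, with a 95% interval from -0.30 to 0.27 (adjusted p = 0.918), and the arrays of the 2 doses overlapped. The as-deposited call was lost without replicate 2 of TC32 at 100 nM (adjusted p = 0.107) or replicate 2 at 500 nM (adjusted p = 0.254).

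The test of the difference between the lines separated them at 100 nM. The FLI1 fall was larger in TC32 than in A673 by 1.27 ± 0.29 as deposited (limma interaction, adjusted p = 0.00619) and by 1.69 ± 0.19 on the relative scale (adjusted p = 3.72e-05). FLI1 was the one member called in this contrast on either scale, where 0.0887% of all tested genes were called in that direction and 2.22% in the other as deposited, and 1.76% and 0.857% on the relative scale. The relative call held whichever array was left out. The as-deposited call was lost without replicate 1 of A673 DMSO (adjusted p = 0.129), replicate 1 or 2 of A673 at 100 nM (0.151 and 0.0733), replicate 1 or 2 of TC32 DMSO (0.0704 and 0.120), or replicate 1 of TC32 at 100 nM (0.172).

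At 500 nM, where the TC32 mean lay under the filter level, the difference between the lines was -0.66 as deposited (adjusted p = 0.384). On the relative scale it was -0.70 ± 0.19 (adjusted p = 0.0232), again with FLI1 as the one member called, against 6.75% of all tested genes in that direction and 3.04% in the other. That call was lost without replicate 1 of A673 DMSO (adjusted p = 0.0615), replicate 1 or 2 of A673 at 500 nM (0.0623 and 0.0910), replicate 1 or 2 of TC32 DMSO (0.0735 and 0.0779), or replicate 2 of TC32 at 500 nM (0.130). As deposited it was instead gained without replicate 2 of A673 at 500 nM (-0.85, adjusted p = 0.00660). As deposited, none of the 7 tested members passed in this contrast, where 1.28% of all tested genes were called lower and 0.552% higher.

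On the relative scale, the order of FLI1 levels ran from A673 under DMSO (mean 3.67 above the array median) through A673 at 100 nM (2.84), TC32 under DMSO (2.47) and A673 at 500 nM (1.84) to TC32 at 100 and 500 nM (-0.04 and -0.05). Only the last pair overlapped, and A673 at the higher dose stayed above both treated TC32 groups. Endothelial cells also use FLI1 and ERG, so their markers were read beside these values. All 5 were kept, 2 were tested (PECAM1 and VWF) and the means of CDH5, TEK and KDR were under the filter level. PECAM1 lay between 5.63 and 6.74 over the 12 arrays. The mean of the 5 per array lay between 5.85 and 6.25 in A673 under DMSO and 5.51 and 5.92 at 500 nM. In TC32 it lay between 5.56 and 5.60 under DMSO and 5.30 and 5.35 at 500 nM. Their part in the FLI1 values was not tested.

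EWSR1, the 5′ partner, changed less than FLI1 as deposited: in TC32 at 100 nM both of its arrays lay above both DMSO arrays as deposited, and in the other 3 comparisons with DMSO both lay below. Its values in A673 were 11.4 and 11.3 under DMSO, 11.1 and 11.2 at 100 nM, then 11.2 and 10.6 at 500 nM. The TC32 arrays read 10.2 and 10.1 under DMSO, 10.3 and 10.5 at 100 nM, then 9.74 and 9.76 at 500 nM. As deposited the highest group of TC32 was the lower dose, and the pair of A673 arrays at 500 nM spread over more than the differences between that line's groups.

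As deposited, EWSR1 was at -0.22 ± 0.19 at 100 nM in A673 (adjusted p = 0.287) and at 0.20 ± 0.19 in TC32 (adjusted p = 0.520). After centring it rose at each dose in each line, by 0.40 ± 0.11 at 100 nM (adjusted p = 0.00617) and 0.38 at 500 nM (adjusted p = 0.00685) in A673, and by 0.41 (adjusted p = 0.00428) and 0.38 (adjusted p = 0.00493) in TC32. The as-deposited differences at 500 nM had the opposite sign, -0.46 in A673 (adjusted p = 0.0207) and -0.42 in TC32 (adjusted p = 0.0434), so the direction of EWSR1 turns with the scaling. Of the relative calls, the one for TC32 at 500 nM held whichever array was left out. The others were lost without replicate 1 of A673 DMSO (adjusted p = 0.0527 at 100 nM and 0.0517 at 500 nM), replicate 2 of A673 at 100 nM (0.0801), replicate 1 of A673 at 500 nM (0.0801) or replicate 2 of TC32 at 100 nM (0.0809). The as-deposited calls at 500 nM reached adjusted p values up to 0.185 in A673, where leaving out 1 of 3 arrays or fitting only the 6 A673 arrays ended the call, and up to 0.226 in TC32, where leaving out 1 of 10 arrays ended it.

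On the relative scale the EWSR1 rise did not differ between doses or lines by a margin that passed the test. The 500 nM value minus the 100 nM value was -0.02 (95% interval -0.25 to 0.21) in A673 and -0.03 (-0.26 to 0.20) in TC32. The TC32 effect minus the A673 effect was 0.0085 (-0.32 to 0.33) at 100 nM and 0.0005 (-0.32 to 0.33) at 500 nM. These intervals leave room for differences between lines of up to 0.33.

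Setting FLI1 against EWSR1 on the same array removes any shift that all genes of an array share. The FLI1 value minus the EWSR1 value changed from its DMSO mean by -1.22 at 100 nM and -2.20 at 500 nM in A673, and by -2.92 and -2.90 in TC32. The single A673 arrays lay at -1.08 and -1.37 at 100 nM and at -2.31 and -2.10 at 500 nM, and those of TC32 at -2.92 and -2.92 at 100 nM and at -2.68 and -3.13 at 500 nM. The 2 genes moved unequally on every treated array. The subtraction removes an offset that is equal for all genes of an array, but not one that differs with signal level. EWSR1 itself depended on the scaling: in A673 at 100 nM its difference from DMSO was 0.40 with centring and 0.16 with quantile normalization. The doses lay apart in A673 and overlapped in TC32.

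**Figure D2:**
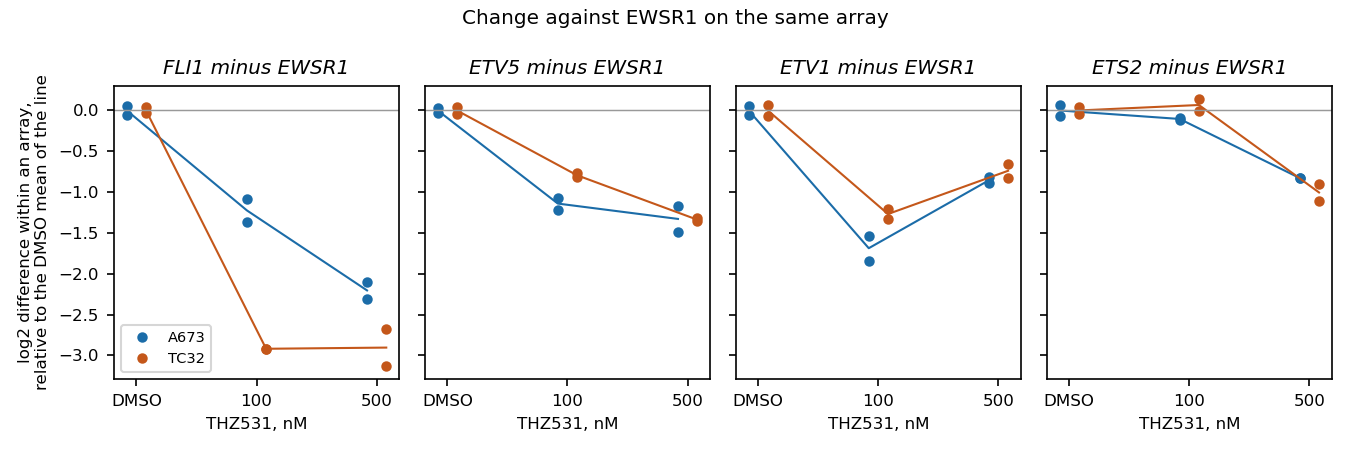
Change of FLI1, ETV5, ETV1 and ETS2 minus EWSR1 on the same array, in log2 units from the DMSO mean of the line, by line and dose; points are arrays (2 per group) and lines are group means. FLI1 reaches -1.22 and -2.20 in A673 and -2.92 and -2.90 in TC32, while ETV1 lies closer to 0 at 500 nM than at 100 nM in both lines. In TC32 the FLI1 mean lay near the filter level at 100 nM and under it at 500 nM.

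TAF15, which encodes another FET protein that resembles the EWSR1 product, showed no change on the relative scale that passed the test. In A673 its values were 9.80 and 9.48 under DMSO, 8.94 and 9.25 at 100 nM, then 9.14 and 8.64 at 500 nM. The TC32 arrays read 9.80 and 9.84 under DMSO, 9.55 and 9.72 at 100 nM, then 9.01 and 9.74 at 500 nM. The arrays of TC32 at 500 nM lay far apart, 1 of them near the level of the DMSO arrays.

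As deposited, TAF15 fell by 0.55 ± 0.20 at 100 nM in A673 (adjusted p = 0.0153) and by 0.75 at 500 nM (adjusted p = 4.95e-04), and by 0.45 at 500 nM in TC32 (adjusted p = 0.0452). After centring the same 3 differences were 0.07 ± 0.18 (adjusted p = 0.790), 0.08 (adjusted p = 0.709) and 0.34 (adjusted p = 0.0849), all of the opposite sign. The TC32 call was lost without 9 of the 12 arrays, with an adjusted p of 0.808 without replicate 1 at 500 nM, and without that array the relative difference was 0.74 (adjusted p = 4.76e-04). The A673 calls were lost without replicate 1 of DMSO (adjusted p = 0.261 at 100 nM and 0.0504 at 500 nM), and the 100 nM call also without replicate 1 at that dose (0.218) or when only the 6 A673 arrays were fitted (0.118).

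ETV5, ETV1 and ETV4 form the PEA3 group of ETS factors, whose genes respond to growth factor signalling through the MAP kinase pathway. ETV5 and ETV1 fell in both lines on both scales, with different dose patterns, while the sign of the ETV4 differences turned with the scaling in 3 of the 4 comparisons with DMSO. The values of ETV5 in A673 were 10.35 and 10.31 under DMSO, 9.03 and 8.91 at 100 nM, then 8.68 and 8.40 at 500 nM. The TC32 arrays read 8.38 and 8.36 under DMSO, 7.72 and 7.84 at 100 nM, then 6.62 and 6.61 at 500 nM. Every group lay apart from the next, and in TC32 the larger step came with the higher dose.

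ETV5 fell by 1.36 ± 0.21 at 100 nM in A673 (adjusted p = 1.28e-09; relative -0.74 ± 0.12, adjusted p = 4.59e-05) and by 1.79 at 500 nM (adjusted p = 1.15e-16; relative -0.95, adjusted p = 7.12e-07). In TC32 it fell by 0.59 at 100 nM (adjusted p = 0.0206; relative -0.39, adjusted p = 0.0113) and by 1.75 at 500 nM (adjusted p = 3.04e-16; relative -0.96, adjusted p = 4.22e-07). The step from 100 to 500 nM was a fall in TC32 (-1.16, adjusted p = 1.22e-07; relative -0.58, adjusted p = 3.21e-04). In A673 that step was -0.43 (adjusted p = 0.126; relative -0.21, adjusted p = 0.176). The difference between the lines was 0.77 at 100 nM (adjusted p = 0.114) and did not pass on the relative scale either. At 500 nM the relative falls of the lines differed by -0.0085 (95% interval -0.36 to 0.35). The TC32 call at 100 nM was the fragile one: as deposited it was lost without any 1 of that comparison's 4 arrays (adjusted p from 0.0913 to 0.213), and on the relative scale without replicate 2 of DMSO (0.0715) or replicate 1 at 100 nM (0.134).

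ETV1 was lowest at the lower dose in A673. Its values there were 10.59 and 10.39 under DMSO, 8.72 and 8.45 at 100 nM, then 9.44 and 8.92 at 500 nM. The TC32 arrays read 8.72 and 8.75 under DMSO, 7.53 and 7.81 at 100 nM, then 7.48 and 7.67 at 500 nM. Both A673 arrays at 500 nM lay above both arrays at 100 nM, and in TC32 the doses overlapped as deposited.

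At 100 nM ETV1 fell by 1.91 ± 0.21 in A673 (adjusted p = 5.30e-18; relative -1.29 ± 0.13, adjusted p = 1.31e-07) and by 1.07 in TC32 (adjusted p = 3.89e-06; relative -0.86, adjusted p = 1.63e-05). At 500 nM it was down by 1.31 in A673 (adjusted p = 1.47e-09; relative -0.48, adjusted p = 0.00445) and by 1.16 in TC32 (adjusted p = 1.05e-07; relative -0.36, adjusted p = 0.0194). Against 100 nM, the 500 nM arrays of A673 were higher by 0.59 (adjusted p = 0.0188), and by 0.81 ± 0.13 on the relative scale (adjusted p = 4.12e-05). In TC32 the same contrast was -0.09 as deposited (adjusted p = 0.722) and 0.50 ± 0.13 relative (adjusted p = 0.00295). Within the array, ETV1 minus EWSR1 was 0.83 higher at 500 than at 100 nM in A673 and 0.53 higher in TC32.

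The relative ETV1 rise between doses held in A673 whichever array was left out. In TC32 it was lost without replicate 1 at 100 nM (adjusted p = 0.0934) or replicate 2 at 500 nM (0.0570). As deposited, the A673 rise was lost without replicate 1 or 2 at 100 nM (0.0513 and 0.319) or replicate 1 at 500 nM (0.0534), and when only the 6 A673 arrays were fitted (0.172). The relative fall at 500 nM in TC32 was lost without replicate 2 of DMSO (0.115) or replicate 1 at 500 nM (0.195), and with quantile normalization, which equalises the arrays (-0.14, adjusted p = 0.308). The fall at 100 nM did not differ between the lines by a margin that passed the test, at 0.84 as deposited (adjusted p = 0.0922) and 0.43 relative (95% interval 0.04 to 0.82, adjusted p = 0.279).

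ETV4 was tested among the members through its level in A673, since its TC32 means lay under the filter level in all 3 groups. In A673 it read 7.90 and 8.02 under DMSO, 7.52 and 7.49 at 100 nM, then 7.65 and 7.06 at 500 nM. In TC32 it read 5.52 and 5.76 under DMSO, 5.78 and 5.72 at 100 nM, then 5.18 and 5.28 at 500 nM, all under the filter level. Every A673 array lay above every TC32 array, with treatment or without.

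At 500 nM ETV4 fell by 0.61 ± 0.22 in A673 as deposited (adjusted p = 0.00750), a call that was lost without replicate 2 at 500 nM (0.138), and on the relative scale it was at 0.22 (adjusted p = 0.180). In TC32, where both groups lay under the filter level, the as-deposited value was -0.41 (adjusted p = 0.0866) and the relative one 0.39 (adjusted p = 0.0200). That relative call lies between values under the filter level and is not described as a rise, and it was lost without replicate 1 of DMSO (0.243) or replicate 2 at 500 nM (0.138). At 100 nM neither line passed the test on either scale, with adjusted p values from 0.0541 to 0.797. The A673 difference there, -0.46 as deposited, passed without either A673 array at 500 nM (adjusted p = 0.00877 and 0.00856) and with no trend in the variance prior (0.0397), and the relative TC32 difference of 0.32 passed without either A673 DMSO array (0.0363 and 0.0373) or replicate 2 of TC32 DMSO (0.0373).

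ETS2, a broadly expressed ETS factor that is also a target of MAP kinase signalling, fell in both lines at the higher dose. In A673 its values were 8.01 and 8.05 under DMSO, 7.68 and 7.74 at 100 nM, then 7.04 and 6.45 at 500 nM. The TC32 arrays read 6.49 and 6.46 under DMSO, 6.73 and 6.76 at 100 nM, then 4.94 and 5.17 at 500 nM. Both TC32 arrays at 100 nM lay above DMSO, and both at 500 nM lay under the filter level.

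At 500 nM ETS2 fell by 1.28 ± 0.21 in A673 (adjusted p = 6.98e-09; relative -0.45 ± 0.13, adjusted p = 0.00713) and by 1.42 in TC32 (adjusted p = 1.18e-10; relative -0.63, adjusted p = 3.28e-04). With the TC32 mean held at the filter level, that fall is 1.45-fold as deposited. At 100 nM it was at -0.32 in A673 (adjusted p = 0.165) and 0.27 in TC32 (adjusted p = 0.419), and on the relative scale at 0.30 in A673 (adjusted p = 0.0834) and up by 0.48 in TC32 (adjusted p = 0.00582). From 100 to 500 nM it fell in both lines, by 0.96 in A673 (adjusted p = 5.31e-05; relative -0.75, adjusted p = 1.10e-04) and by 1.69 in TC32 (adjusted p = 2.12e-14; relative -1.10, adjusted p = 3.80e-07). In TC32 that step is 1.75-fold (-0.80) as deposited with the mean at 500 nM held at the filter level. The relative fall at 500 nM in A673 was lost without replicate 2 of DMSO (0.0925) or replicate 2 at 500 nM (0.0629), and with quantile normalization (-0.24, adjusted p = 0.150). The relative rise at 100 nM in TC32 was lost without replicate 2 at that dose (0.0541). On the relative scale ETS2 and ETV1 thus showed opposite dose patterns: from 100 to 500 nM ETV1 rose and ETS2 fell, in both lines. In TC32 this rests on the scale and on single arrays. There ETV1 was at -0.09 as deposited (limma, adjusted p = 0.722), its relative rise was lost when single arrays were left out, and ETS2 at 500 nM lay under the filter level.

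ERG, the closest relative of FLI1 and its alternative in the fusion, lay between 4.74 and 5.69 on the 12 arrays. ETS1, the founding member of the family, lay between 3.99 and 5.42. Both stayed under the filter level in every group, and neither was tested.

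**Figure D3:**
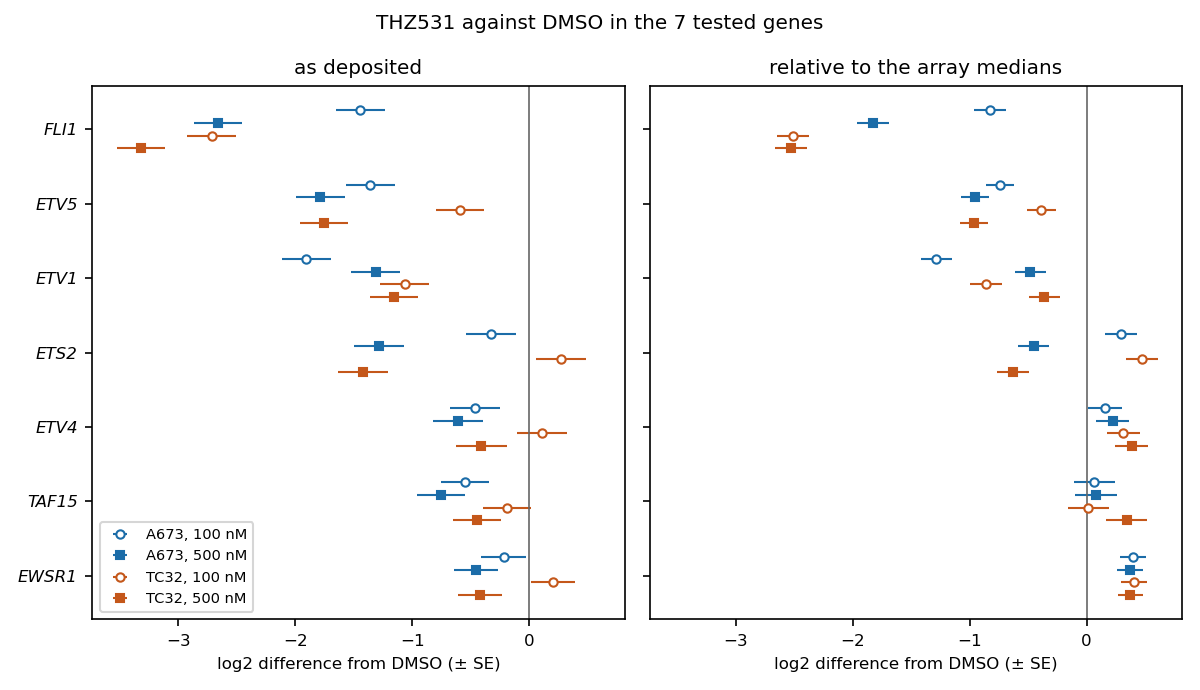
Log2 difference ± SE of the 7 tested genes against DMSO at 100 and 500 nM in A673 and TC32, as deposited in one panel and on the relative scale in the other, with a line at 0. FLI1 lies lowest in 3 of the 4 comparisons and ETV1 in A673 at 100 nM (-1.91), and EWSR1 moves from -0.46 to 0.38 between the panels in A673 at 500 nM.

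Counted over the 7 tested genes, the falls as deposited stand against a fall of most genes on the arrays. In A673 at 500 nM all 7 fell, where 82.5% of the 10148 genes fell and 0.946% rose, and in TC32 6 fell, where 62.9% fell and 0.946% rose. At 100 nM 4 fell in A673 (58.7% of all genes fell and 1.31% rose) and 3 fell in TC32 (20.9% and 5.56%). No member rose against DMSO as deposited.

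Centred values gave counts on both sides. At 100 nM in A673, 3 members fell and 1 rose, against 17.1% and 24.4% of all tested genes, and at 500 nM 4 fell and 1 rose, against 27.4% and 29.6%. In TC32 at 100 nM, 3 fell and 2 rose, against 21.2% and 30.6%, and at 500 nM 4 fell and 2 were called higher, against 30.8% and 41.3%. Those 2 are EWSR1 and ETV4, and ETV4 lay under the filter level in both groups compared. The 3 that fell in all 4 of these comparisons, which share the DMSO arrays within a line, were FLI1, ETV1 and ETV5, and ETS2 joined them at 500 nM. The median difference of the members at 500 nM was -0.45 in A673 against 0.10 for all tested genes, and -0.36 in TC32 against 0.15.

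Between the doses as deposited, 2 members fell and 1 rose in A673 (26.7% of all genes fell and 0.897% rose), and 5 were called lower in TC32 (55.5% and 1.09%), among them ETV4 (-0.52, adjusted p = 0.0318), under the filter level at both doses. Once centred, 2 fell and 1 rose in each line, against 25.1% and 10.4% in A673 and 29.8% and 29.1% in TC32. In A673 those that fell were FLI1 and ETS2, in TC32 they were ETV5 and ETS2, and the member that rose was ETV1 in both. The number of members called as deposited depended on single arrays of A673 at 500 nM: at 100 nM in A673 it went from 4 to 7 without either of them, as EWSR1, ETS2 and ETV4 passed too. In the contrast of the lines at 100 nM it went from 1 to 6 without either of them and to 0 without the 6 arrays named above. Between the doses in A673 it went from 3 to 5 without replicate 1. It went from 5 to 2 between the doses in TC32 without replicate 2 at 100 nM.

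Between the untreated lines most tested members differed, as did most tested genes as deposited. As deposited, 6 of the 7 were higher in A673 than in TC32 under DMSO, where 77.4% of all tested genes were higher and 5.13% lower. The same comparison of centred values gave 6 higher and 1 lower, against 33.9% and 21.4%. On both scales the 6 include ETV4, which passed the filter through its A673 level. Its difference is therefore given without a test. FLI1 was higher in A673 by 1.88 (adjusted p = 3.48e-18; relative 1.19, adjusted p = 1.61e-07) and ETV5 by 1.96 (adjusted p = 1.39e-19; relative 1.27, adjusted p = 8.07e-09). ETV4 was higher by 2.32 as deposited and by 1.63 on the relative scale. For ETV4 the TC32 level was under the filter level. With it held there the as-deposited difference is 4.05-fold, or 2.02 on the log2 scale, close to that of ETV5. ETV1 was higher by 1.75 (relative 1.06, adjusted p = 5.73e-07), ETS2 by 1.55 (relative 0.86, adjusted p = 1.14e-05) and EWSR1 by 1.19 (relative 0.50, adjusted p = 5.55e-04). TAF15 was at -0.18 as deposited (adjusted p = 0.407), and on the relative scale it was 0.87 lower in A673 (-0.87, adjusted p = 2.42e-04).

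The lines kept this order under treatment for some members. On the relative scale, all 6 A673 arrays of ETV5 lay above all 6 TC32 arrays, and neighbouring treatments did not overlap within either line. The ETV4 arrays had the same order of lines. That order is a description only, since ETV4 passed the filter through its A673 level and lay under it in TC32. For TAF15 all 6 TC32 arrays lay above all 6 A673 arrays, and neighbouring treatments overlapped within each line. For FLI1 and ETV1 the order crossed: TC32 under DMSO lay above A673 at 500 nM for FLI1 and above A673 at 100 nM for ETV1.

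The other ETS genes were read from a list of 21, of which 20 were kept and 12 were tested. As deposited, 9 fell in A673 at 100 nM (75% of the 12, where 58.7% of all tested genes fell), 11 at 500 nM (against 82.5%), 2 in TC32 at 100 nM (20.9%) and 9 at 500 nM (62.9%), and 1 rose, in TC32 at 100 nM (5.56%). Once centred, 1 fell and 1 rose in A673 at 100 nM (17.1% and 24.4% of all tested genes), 2 fell and 3 rose at 500 nM (27.4% and 29.6%), and in TC32 2 fell and 4 rose at 100 nM (21.2% and 30.6%) and 3 fell and 4 rose at 500 nM (30.8% and 41.3%). Their median relative difference at 500 nM was 0.05 in A673 and 0.20 in TC32, next to 0.10 and 0.15 for all tested genes. The as-deposited count at 100 nM in A673 dropped to 4, 5 and 3 without replicate 1 of DMSO, replicate 1 and replicate 2 at that dose, and the count at 500 nM to 7 without replicate 1 of DMSO or replicate 2 at 500 nM. The 3 relative rises at 500 nM in A673 became 1 without replicate 2 of DMSO or replicate 2 at 500 nM, 0 without replicate 1 at 500 nM and 5 without either TC32 array at 100 nM. At 100 nM in A673 the 1 relative fall became 0 without replicate 2 at that dose, and the 1 relative rise became 2 without replicate 1 of DMSO. The 2 as-deposited falls in TC32 at 100 nM became 1 without replicate 1 of DMSO or replicate 1 at that dose. The 4 relative rises in TC32 became 2 at 100 nM without replicate 2 of DMSO or replicate 2 at 100 nM, and 2 at 500 nM without replicate 1 of DMSO.

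At the low end in A673 at 500 nM were ELF2, an activator of the ELF group, and ERF, an ETS repressor that ERK signalling inactivates. ELF2 fell by 2.71 (adjusted p = 4.54e-37; relative -1.88, adjusted p = 1.89e-10) and in TC32 by 2.43 (adjusted p = 3.72e-30; relative -1.64, adjusted p = 1.12e-09). At 100 nM its relative difference was -0.01 in A673 (adjusted p = 0.962) and 0.16 in TC32 (adjusted p = 0.341), beside an as-deposited fall by 0.63 in A673 (adjusted p = 0.00654) and a value of -0.05 in TC32 (adjusted p = 0.920). ERF fell by 1.69 (adjusted p = 4.61e-15; relative -0.86, adjusted p = 3.31e-06) and in TC32 by 2.57 (adjusted p = 2.19e-33; relative -1.77, adjusted p = 2.85e-11). Both were under the filter level in TC32 at 500 nM. With those means held at it, the as-deposited falls are 4.73-fold for ELF2 (-2.24) and 4.63-fold for ERF (-2.21). At the high end were ETV3, at -0.42 (adjusted p = 0.0676; relative 0.42, adjusted p = 0.0145), and ETV3L, at -0.49 (adjusted p = 0.0327; relative 0.35, adjusted p = 0.0397), whose signs turn with the scaling.

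**Figure D4:**
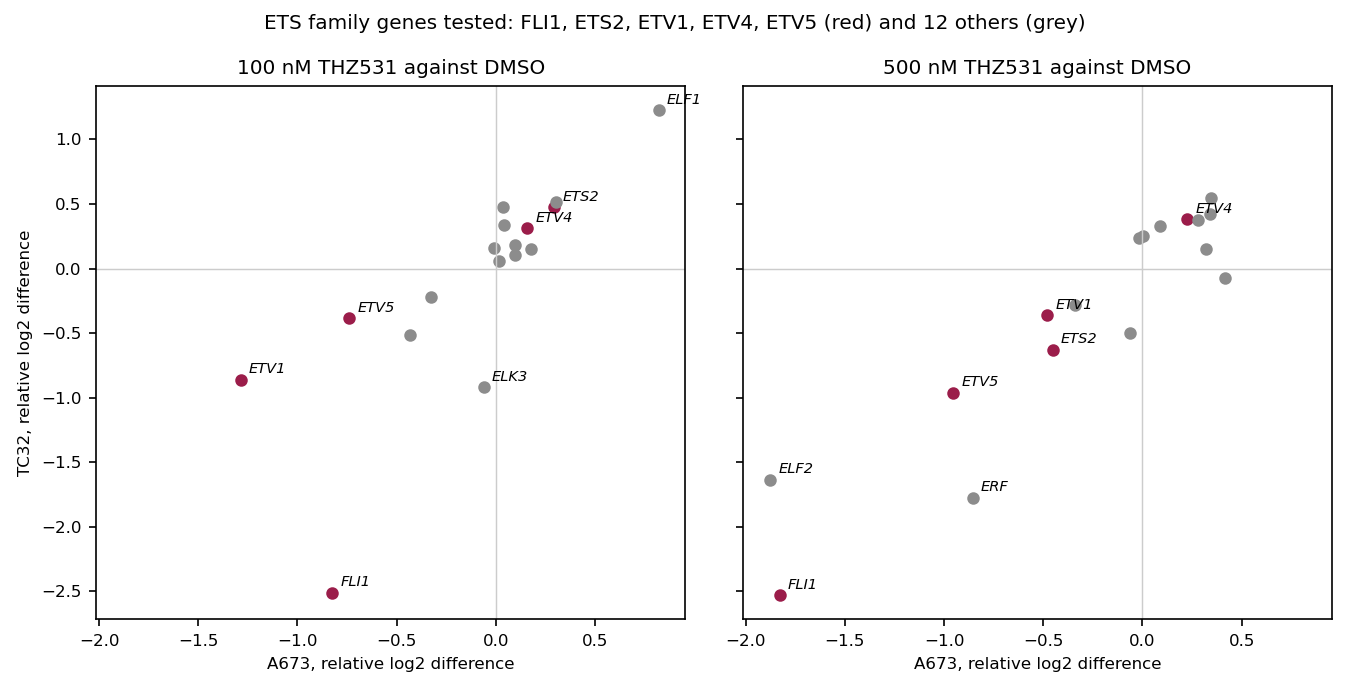
Log2 difference from DMSO on the relative scale in A673 (horizontal axis) and TC32 (vertical axis) at 100 nM and 500 nM, with 5 tested ETS members in red and 12 other tested ETS genes in grey. FLI1 lies at -0.82 and -2.51 at 100 nM, far below the diagonal, and at 500 nM it lies with ELF2 (-1.88 and -1.64) and ERF (-0.86 and -1.77) at the low end.

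Genes that EWS/FLI is known to activate were read from a list of 20, of which 17 were tested. As deposited, 8 fell in A673 at 100 nM (47.1% of the 17, where 58.7% of all tested genes fell), 13 at 500 nM (76.5% against 82.5%), 4 in TC32 at 100 nM (23.5% against 20.9%) and 10 at 500 nM (58.8% against 62.9%), and none rose in these 4 comparisons by limma's adjusted p. After centring, 2 fell and 6 rose in A673 at 100 nM (17.1% and 24.4% of all tested genes), 2 fell and 9 rose at 500 nM (27.4% and 29.6%), and in TC32 3 fell and 6 rose at 100 nM (21.2% and 30.6%) and 6 fell and 9 rose at 500 nM (30.8% and 41.3%). Their median relative difference at 500 nM was 0.32 in A673 and 0.29 in TC32, next to 0.10 and 0.15 for all tested genes. Without replicate 1 of A673 DMSO, or replicates 1 and 2 at 100 nM, the 8 became 4, 5 and 3. The 4 falls in TC32 at 100 nM became 1 without replicate 1 of TC32 DMSO and 2 without 7 of the other arrays, left out singly. The 6 relative rises there became 3 without replicate 2 of TC32 DMSO, and the as-deposited rises went from 0 to 2 without either A673 array at 500 nM. The 2 relative falls in A673 became 1 at 100 nM without replicate 2 of DMSO or replicate 1 at that dose, and 1 at 500 nM without replicate 2 at that dose.

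BCL11B, a zinc finger transcription factor, had the largest fall of this list, by 3.61 in A673 (adjusted p = 8.42e-65; relative -2.77, adjusted p = 7.91e-14) and 3.99 in TC32 (adjusted p = 3.43e-79; relative -3.20, adjusted p = 3.87e-15) at 500 nM. NKX2-2, a homeobox factor, fell by 1.20 in A673 (adjusted p = 3.62e-09; relative -0.37, adjusted p = 0.00681) and by 2.51 in TC32 (adjusted p = 3.92e-36; relative -1.72, adjusted p = 9.18e-12). At 100 nM NKX2-2 was at -0.19 in A673 (adjusted p = 0.362) and 0.23 in TC32 (adjusted p = 0.473) as deposited. On the relative scale it was up by 0.42 in A673 (adjusted p = 0.00345), so that its sign turns with the scaling there, and by 0.43 in TC32 (adjusted p = 0.00239). At the high end at 500 nM in A673 were CCK, which encodes the hormone cholecystokinin, at -0.22 (adjusted p = 0.223; relative 0.62, adjusted p = 6.35e-06), and PRKCB, a protein kinase C, at -0.33 (adjusted p = 0.0707; relative 0.51, adjusted p = 1.93e-04).

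Of 10 genes that EWS/FLI is known to repress, 8 were tested. After centring, 6 rose in A673 at each dose with none called lower (24.4% of all tested genes rose and 17.1% fell at 100 nM, 29.6% and 27.4% at 500 nM). In TC32 6 rose and 1 fell at 100 nM (30.6% and 21.2%), and 5 rose and 1 fell at 500 nM (41.3% and 30.8%). Their median relative difference at 100 nM was 0.61 in A673 and 0.51 in TC32, next to 0.10 and 0.13 for all tested genes, and at 500 nM 0.45 and 0.34, next to 0.10 and 0.15. As deposited 3 rose and none was called lower in A673 at 100 nM (1.31% and 58.7% of all tested genes), and 2 rose and 3 fell at 500 nM (0.946% and 82.5%). In TC32 3 rose and 1 fell at 100 nM (5.56% and 20.9%), and 1 rose and 4 fell at 500 nM (0.946% and 62.9%). The 4 falls became 1, 2 and 2 without replicate 1 of TC32 DMSO and replicates 1 and 2 at 500 nM, and the 3 falls in A673 at 500 nM became 6 without replicate 1 at that dose. The 0 as-deposited falls in A673 at 100 nM became 2 without either A673 array at 500 nM and 1 without replicate 2 of DMSO. In TC32 at 100 nM the 1 as-deposited fall became 0 without any 1 of that comparison's 4 arrays, and the 1 relative fall became 0 without replicate 1 of DMSO or replicate 1 at 100 nM. At 500 nM in TC32 the 1 relative fall became 0 without any 1 of 5 arrays, and the 1 as-deposited rise became 0 without replicate 2 of DMSO or replicate 2 at 500 nM and 2 without either A673 array at 500 nM. The matricellular genes CCN1 and CCN2 were the highest in A673 at 500 nM, up by 1.18 (adjusted p = 2.90e-09; relative 2.01, adjusted p = 1.08e-11) and 1.11 (adjusted p = 1.32e-09; relative 1.94, adjusted p = 6.08e-11). The lowest were SPRY1, an inhibitor of receptor tyrosine kinase signalling, at -0.91 (relative -0.08, adjusted p = 0.604), and the forkhead gene FOXO1, at -0.86 (relative -0.03, adjusted p = 0.873). FOXO1 was up at 100 nM in A673, by 0.69 as deposited (adjusted p = 0.00273) and 1.31 relative (adjusted p = 2.32e-07).

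Over the 12 arrays, centred on their medians, the tested genes whose pattern was most like that of FLI1 were ESPL1, CLUAP1 and COA5 (Pearson r of 0.985, 0.980 and 0.979). Those most like EWSR1 were BUD31, CXXC1 and COPS8 (0.988, 0.988 and 0.986). These correlations describe 12 arrays that share 6 treatments, 2 lines and the centring, and they carry no test.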

How the data were processed

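RNA from A673 and TC32 was labelled with biotin and read on 12 arrays, per the labels' protocols, with an external RNA mix added to total RNA. The deposited values are log2 signals made by the authors, with a log base inferred from their range. The submitters' processing notes name MAS5, GRCh37 and hg19 with no role, and the sources used here do not say whether arrays were scaled to the added RNA. In the labels the DMSO samples carry a dose of 100 nM, taken here as a slip.

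The table held 49395 probe sets, 44994 annotated to 1 gene, 1832 to several and 2569 to none. Entries with 3 decimals were used (46566). A gene's probe sets nearly always repeat 1 set of values: each member has 1 distinct set, and 10 of the 16913 kept genes had more, of which the set with the highest mean was taken. Another 116 genes shared their values with another symbol and were left out. RefSeq matched 44967 probe sets by Entrez ID and changed 0 symbols. EWSR1 also has 1 probe set shared with another gene, not used here.

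Python 3.11.15 and limma 3.58.1 in R 4.3.3 were used: 1 mean per group over all 12 arrays, variances moderated along a trend with signal level, two-sided testing, and adjustment by Benjamini-Hochberg over 10148 genes at 0.05. On simulated data for A673 at 500 nM against DMSO, all 100 planted changes of log2 size 1 and all 100 of size 2 were found among 10148 genes, with 12 false calls. Nothing in the labels says that replicate numbers pair arrays, so the main fit used no block. Still, 5 of 15 pairs of same-numbered deviations correlated above 0.1 (from -0.16 to 0.44). Some structure shared by same-numbered arrays may thus remain, and the calls that a block changed are given below. The members, gene lists and tests were chosen with earlier results of these data known. The genes named outside the members are the 2 lowest and 2 highest tested differences of each list in A673 at 500 nM, and the 3 genes most correlated with FLI1 and with EWSR1. Marker lists of neural, muscle, epithelial and haematopoietic cells were read as levels only. In the 6 groups, array means of the neural list ran from 5.52 to 7.19, of the muscle list from 5.21 to 5.93, of the epithelial list from 5.57 to 6.42 and of the haematopoietic list from 5.32 to 6.23. Alternatives were centring, quantile normalization, other filters, no variance trend, arrays of 1 line, the probe set with the lowest mean, the replicate number as a block and leaving out each array.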

Additional observations from a re-analysis of the deposited data

Results flagged for a closer look

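The effect of THZ531 on FLI1 differed between the lines at 100 nM on both scales. At that dose the fall in TC32 exceeded that in A673, with a difference of -1.27 as deposited (limma interaction test, adjusted p = 0.00619) and -1.69 on centred values (adjusted p = 3.72e-05), both arrays of each treated group lying below both of its DMSO arrays. At 500 nM the difference on centred values was -0.70 (adjusted p = 0.0232), with the same order of arrays. As deposited it was -0.66 at 500 nM (adjusted p = 0.384), which did not pass. The as-deposited call at 100 nM and the centred call at 500 nM were each lost in 6 of the 12 fits that leave out 1 array, with adjusted p up to 0.172 and 0.130, while the centred call at 100 nM held in all 12. In TC32 the 500 nM arrays lay under the filter level of 5.94. No group held enough arrays for a test of single arrays.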

How the results depend on the processing

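The falls of FLI1 against DMSO, and those of ETV1 and ETV5 in A673, kept their direction and their call as deposited under every alternative run. Taking the probe set with the lowest mean was no check of the members, since each has 1 distinct set of values. With 2 arrays per group, a lone array left in a group is assumed to vary like the other groups. Of the 7 tested members, the number called as deposited in TC32 at 100 nM was 3, and 5 with centring or quantile normalization. Between the doses in TC32 it was 5, and 3 with centring or quantile normalization. With a filter at the 60th percentile (7.10) it was also 3, but there ETS2 and ETV4 lay under the filter and were not tested. In the contrast of the lines at 500 nM it was 0, and 1 with centring and 2 with quantile normalization. Leaving out single arrays gave 3 to 7 in A673 at 100 nM, 2 to 5 between the doses in A673 and in TC32, 0 to 6 in the contrast of the lines at 100 nM, 0 to 1 in that at 500 nM on either scale, and 3 to 6 relative to the medians in TC32 at 100 nM.

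With the replicate number as a block the contrast of the lines at 100 nM had 2 members called in place of 1 (ETV1 at 0.84, adjusted p = 0.0431, joined FLI1). With the replicate block and centring, 6 were called in TC32 at 100 nM, 3 between the doses in TC32 and 1 in the contrast of the lines at 500 nM. The block also gave calls, absent without it, for ETV4 in A673 at 100 nM (-0.46, adjusted p = 0.0213) and in TC32 at 500 nM (-0.41, adjusted p = 0.0400), and with centring for ETV4 in TC32 at 100 nM (0.32, adjusted p = 0.0465) and TAF15 in TC32 at 500 nM (0.34, adjusted p = 0.0346). The block counts of the other comparisons were within 1.5 times of those without it.

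Centring (with or without the replicate block) and quantile normalization turned these signs; the construction of both removes the shift that all genes of an array share. EWSR1 in A673 went from -0.22 to 0.40 and 0.16 at 100 nM and from -0.46 to 0.38 and 0.16 at 500 nM, and in TC32 from -0.42 to 0.38 and 0.17 at 500 nM. ETS2 in A673 at 100 nM went from -0.32 to 0.30 and 0.38. ETV1 between the doses in TC32 went from -0.09 to 0.50 and 0.71. ETV4 in A673 went from -0.46 to 0.16 and 0.24 at 100 nM, from -0.61 to 0.22 and 0.47 at 500 nM and from -0.15 to 0.067 and 0.23 between the doses, and in TC32 from -0.41 to 0.39 and 0.0662 at 500 nM. TAF15 in A673 went from -0.55 to 0.0665 and 0.0636 at 100 nM, from -0.75 to 0.0805 and 0.27 at 500 nM and from -0.20 to 0.014 and 0.21 between the doses, and in TC32 from -0.45 to 0.34 and 0.22 at 500 nM and from -0.26 to 0.33 and 0.35 between the doses. Its contrast of the lines at 100 nM went from 0.36 to -0.0505 and -0.20. Centring alone turned ETV4 between the doses in TC32 (0.0695), TAF15 in TC32 at 100 nM (0.016) and the ETV5 contrast of the lines at 500 nM (-0.0085). Quantile normalization alone turned the ETV4 contrasts of the lines (-0.0721 at 100 nM and -0.40 at 500 nM), ETV5 between the doses in A673 (0.0038) and the TAF15 contrast of the lines at 500 nM (-0.0558).

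Leaving out single arrays turned the sign of differences near 0. As deposited the ranges were -0.53 to 0.0585 for EWSR1, -0.44 to 0.15 for ETV4 and -0.45 to 0.0535 for TAF15 between the doses in A673, and -0.23 to 0.0505 for ETV1 and -0.63 to 0.11 for TAF15 between the doses in TC32. They were -0.0105 to 0.23 for ETV4 in TC32 at 100 nM. In the contrast of the lines at 500 nM they were -0.26 to 0.34 for EWSR1, -0.43 to 0.16 for ETS2, -0.10 to 0.42 for ETV1, -0.092 to 0.49 for ETV4, -0.11 to 0.17 for ETV5 and -0.0645 to 0.67 for TAF15.

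Relative to the medians the ranges between the doses were -0.20 to 0.16 for FLI1, -0.18 to 0.11 for EWSR1, -0.0155 to 0.15 for ETV4 and -0.0705 to 0.73 for TAF15 in TC32, and -0.088 to 0.039 for EWSR1 and -0.17 to 0.20 for TAF15 in A673. Against DMSO they were -0.027 to 0.34 for ETV4 and -0.12 to 0.25 for TAF15 in A673 at 100 nM, and -0.13 to 0.16 at 100 nM and -0.0545 to 0.74 at 500 nM for TAF15 in TC32. In the contrast of the lines at 100 nM they were -0.13 to 0.15 for EWSR1, -0.0265 to 0.34 for ETV4 and -0.24 to 0.14 for TAF15. In that at 500 nM they were -0.074 to 0.075 for EWSR1, -0.0085 to 0.24 for ETV1, -0.024 to 0.35 for ETV4, -0.11 to 0.096 for ETV5 and -0.14 to 0.66 for TAF15. The causes of these single-array changes were not tested.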
